A study of Mus musculus with 6 samples.

Results

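The proteasome is the protein machine that degrades proteins tagged with ubiquitin, and its subunit genes were examined in liver tumours and in the liver beside them. The members were taken by gene symbol: every array probe whose platform symbol starts with Psma, Psmb, Psmc, Psmd or Psme and a digit. This gave 80 of 45281 probes, which carry 45 of the 19057 gene symbols read by the array. Psmc3ip, a recombination cofactor, and Psme3ip1, which encodes a binding partner of an activator, match the spelling without being proteasome subunits, so 76 probes of 43 proteasome genes remain. Immunoproteasome genes (Psmb8, Psmb9, Psmb10, Psme1 and Psme2, with 8 probes) were set against the other 38.

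Mice of the C57BL/6J strain received 3e+10 particles of the vector AAV-Rian-CMV, an adeno-associated virus named for the Rian locus, through the superficial temporal vein on the day after birth. At 6 months of age a tumour and adjacent liver were dissected from each of 3 animals, numbered 1293, 1309 and 1316 in the sample titles, and total RNA was read on 6 one-colour Illumina bead arrays. The adjacent liver came from the same injected animals, and no liver of uninjected mice was among the arrays, so the reference is injected liver next to a tumour. For the tumour titled 1316 another label gives a different animal number. Nothing in the labels says that the tumours were purified, so each array reads a mixture of cells, in which fewer cells of a type and less RNA per cell cannot be told apart. With 3 arrays a group, the number of arrays limits the precision, and p-values measure the spread between these samples.

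Levels below are log2 normalized signals, and a difference is the mean of the 3 tumours minus the mean of the 3 adjacent livers on that scale, so that a difference of 1 is a doubling. Per array, 29.2% to 31.7% of probes were above the estimated background. The hepatocyte markers Serpina1c, from 15.58 to 15.67, and Trf, from 15.46 to 15.70, were near the top of the scale on every array in both tissues. Of 13 hepatocyte markers 11 had a difference below 0, as had 9916 of all 19057 genes. Every tumour was below every adjacent liver for 3 of the 13, and for 2087 of the 19057. The 1 call was Alb (albumin), at −0.84 (SE 0.15), where 1.56% of all genes were called lower. Its probe was above background on 5 of 6 arrays.

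As background, the core of the proteasome is a barrel of alpha and beta rings, and the beta rings hold the catalytic sites. A regulatory cap with a base of ATPases unfolds substrates, and its non-ATPase subunits bind ubiquitin chains and remove them. Interferons induce the immunoproteasome, in which Psmb8, Psmb9 and Psmb10 take the places of the catalytic subunits Psmb5, Psmb6 and Psmb7, and Psme1 and Psme2 together form the PA28 activator, which favours peptides for display on MHC class I. The transcription factor NRF1, encoded by Nfe2l1, raises subunit genes together when proteasome activity is blocked, and NRF2, encoded by Nfe2l2, can induce some of them.

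No proteasome subunit gene passed the test between tumour and adjacent liver. Of the 43 genes, 0 were called higher and 0 lower at an adjusted p of 0.05 (limma, Benjamini-Hochberg over all probes), where 5.21% of all genes were called in either direction, 3.64% higher and 1.56% lower. At an unadjusted p under 0.05 there were 5, all with higher tumour means (Psmb5, Psme1, Psmc2, Psmd4 and Psmd5), against 19.1% of all genes in either direction. Of the 76 probes 0 were called, while 3.45% of all probes were. With the animal as a block the 43 genes again gave 0 calls, where 7.67% of all genes were called. Without the tumour of animal 1309 the brightest probe of Psmb5 and the second probes of Psmb8 and Psme1 were called. The single call under the symbol rule was Psmc3ip, which is described at the end.

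The intervals of the differences show the size of change these arrays leave room for. Of the 43 genes, 36 were above background on at least 3 arrays and are called measured here. The lowest difference among them was −0.27 (Psme2) and the highest 0.56 (Psmb5). For 36 of 36 the 95% interval of the difference lay inside a 2-fold change either way, which held for 83.6% of all genes measured by the same standard. For 30 of 36 it lay inside 1.5-fold, against 54.2% of all measured genes. That count was 15 with a normexp offset of 16 and 20 without the tumour of animal 1309. The intervals of Psmb5, Psmb8, Psmc2, Psmd4, Psmd5 and Psme1 reached past 1.5-fold, each on the side of higher tumour signal, and that of Psmb5 went up to 0.98.

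**Figure D1:**
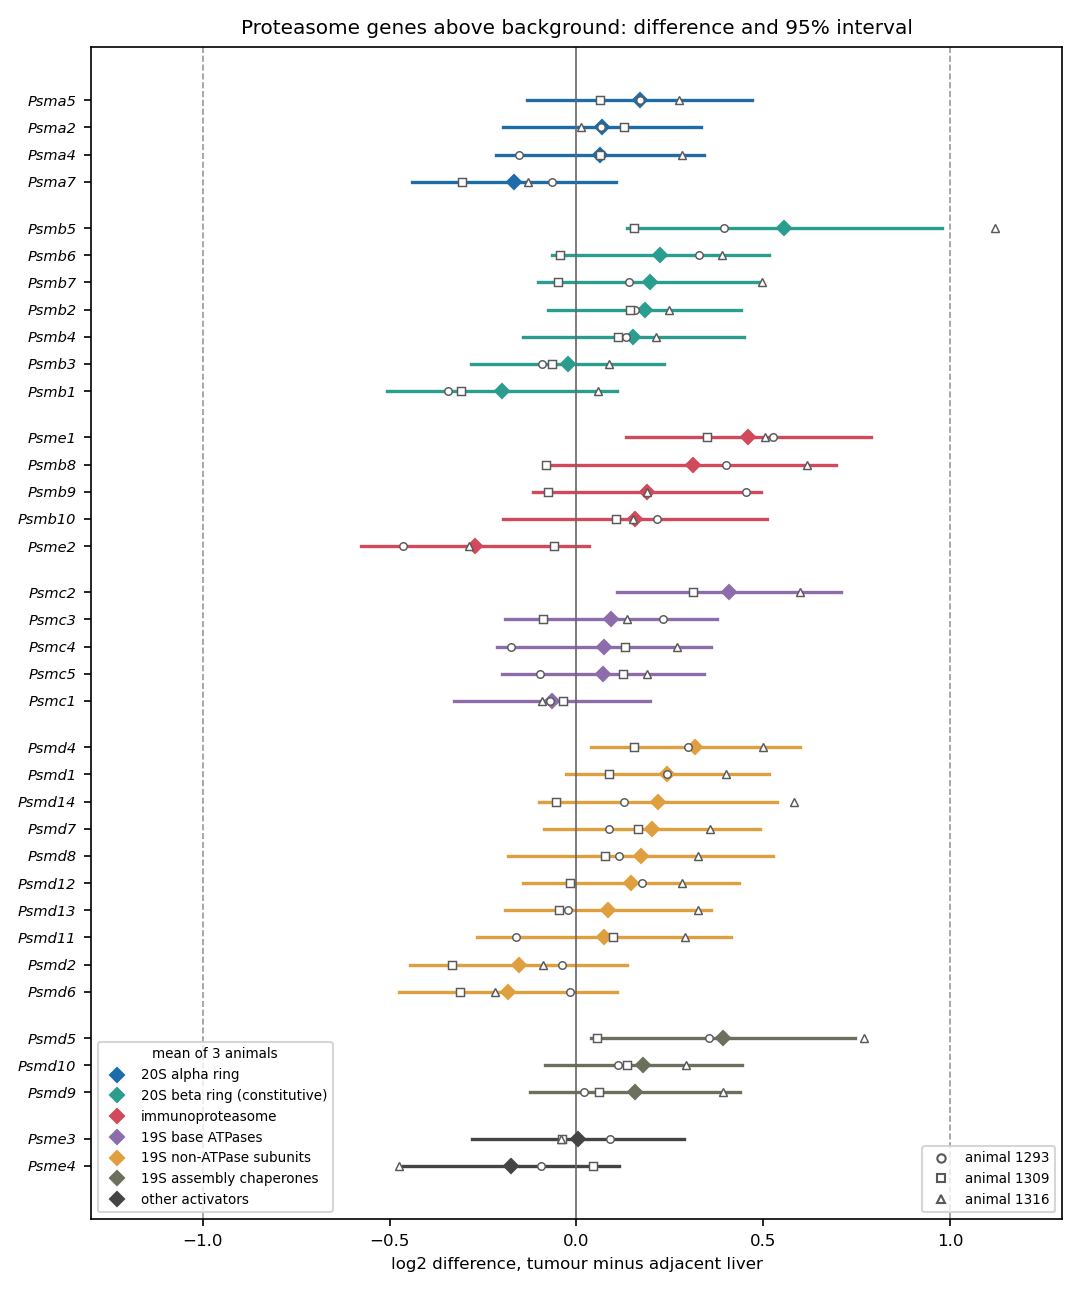
Difference in log2 signal (tumour minus adjacent liver) of the 36 measured proteasome genes, by role. Diamonds are means of 3 animals with 95% intervals from limma, open symbols are single animals, and dashed lines mark 2-fold. The intervals stay inside the dashed lines, and 28 of 36 diamonds lie right of 0.

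A small shift towards higher tumour values was shared by most measured genes. The difference was above 0 for 28 of 36, with a median of 0.15 where the median of all measured genes was −0.02. With the mean of all probes of a gene in place of its brightest, the median of the 36 was 0.097, with 27 above 0. Every tumour array read above every adjacent array for 9 of the 36 (18.6% of all measured genes): Psmb5, Psme1, Psmc2, Psmd4, Psmd1, Psmd7, Psmb2, Psmd10 and Psmd9. The reverse held for 1 of 36 (17.4% of all measured genes), Psme2.

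The size of the shift in each of the 3 animals is given as a description. In animal 1316 the tumour was above its own adjacent liver for 29 of 36 genes, with a median difference of 0.28. In animal 1293 this held for 23 of 36 with a median of 0.11, and in animal 1309 for 20 of 36 with a median of 0.06. Without the tumour of animal 1316 the median difference of the 36 genes was 0.05, with 27 of them above 0. Among all measured genes the medians by animal were −0.02, −0.02 and 0.00 in the order 1293, 1309 and 1316. With arrays scaled to their medians in place of quantile normalization, the median of all measured genes was itself 0.10, and that of the proteasome genes 0.19.

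**Figure D2:**
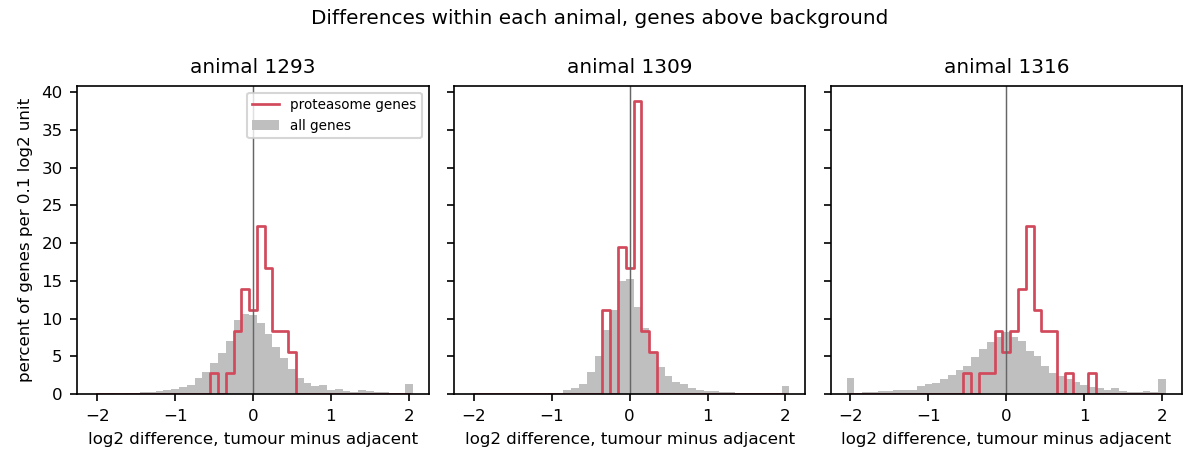
Share of genes (percent per 0.1 log2 unit) by the difference between a tumour and its own adjacent liver, for the 36 measured proteasome genes (line) and all 8298 measured genes (bars); values past 2 either way are in the end bars. The medians of the line are 0.11 in animal 1293, 0.06 in animal 1309 and 0.28 in animal 1316.

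The alpha rings form the gate of the core. Psma2, Psma4, Psma5 and Psma7 were measured, and none was called. Psma5 read 13.05, 13.13 and 13.28 in adjacent liver and 13.23, 13.19 and 13.55 in tumours of animals 1293, 1309 and 1316, so the groups overlapped. Its difference of 0.17 (SE 0.14, adjusted p = 0.689, limma) was the highest of the 4 measured genes of the ring. Psma7 had the lowest, at −0.17 (SE 0.13, adjusted p = 0.648, limma), from 11.94, 12.16 and 12.14 to 11.87, 11.85 and 12.01. Its second probe gave −0.16. Psma2 (0.07) and Psma4 (0.06) lay between them.

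Several constant parts of the particle could not be read. Psma1, Psma3 and Psma6, which every core particle needs, and Psma8, a form known from the testis, were below background on 6 of 6 arrays, between 5.83 and 6.86 on every probe. The same held for Psmb11, a thymus form, for the ATPase gene Psmc6 and for Psmd3 of the cap. Differences of these 7 genes, such as 0.20 for Psma1 and −0.13 for Psma8, carry no fold. Psma1, Psma3, Psma6, Psmc6 and Psmd3 encode subunits whose partners were bright on the same arrays, and the dim probes give no level of these genes.

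The constitutive beta ring held the gene with the highest difference of all. Psmb5, which carries the chymotrypsin-like site, read 10.71, 10.68 and 10.61 in adjacent liver and 11.10, 10.83 and 11.73 in tumours. Every tumour lay above every adjacent liver, and the tumours spread widely while the adjacent livers were close together. The means were 10.67 ± 0.05 and 11.22 ± 0.46 (SD, n = 3), and the difference of 0.56 (SE 0.19) did not pass (adjusted p = 0.175, limma). Within animals it was 0.39, 0.15 and 1.12 in the order 1293, 1309 and 1316. Without the tumour of animal 1309 it was called (0.76, adjusted p = 0.0311, limma), and without that of animal 1316 it was 0.30 (adjusted p = 0.499, limma).

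Psmb6, the caspase-like subunit gene, and Psmb7, the trypsin-like one, had smaller differences than Psmb5, which was not tested. Psmb6 read 12.71, 12.74 and 12.64 in adjacent liver and 13.04, 12.70 and 13.03 in tumours, a difference of 0.22 (SE 0.13, adjusted p = 0.521, limma), with 0.10 on its second probe. The tumour of animal 1309 stayed among the adjacent livers while the other tumours were above them. Psmb7 read 12.85, 12.92 and 12.52 in adjacent liver and 12.99, 12.87 and 13.02 in tumours, a difference of 0.20 (SE 0.14, adjusted p = 0.616, limma). Its groups overlapped, and its 4 probes lay between 0.07 and 0.27. The non-catalytic beta genes were on both sides of 0: Psmb2 (0.18), Psmb4 (0.15), Psmb3 (−0.02) and Psmb1 (−0.20, SE 0.14, adjusted p = 0.623, limma). Psmb1, the lowest of the ring, read 12.18, 12.42 and 12.16 beside the tumours and 11.83, 12.11 and 12.21 in them, with overlap.

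Promoters of Psmb5 and Psmb6 are printed because both hold the core of the antioxidant response element, to which NRF1 and NRF2 bind. The letters searched were TGACNNNGC on both strands, in the 250 bases before each RefSeq gene start of assembly GRCm38.p6, and they are in capitals. The Psmb5 window is chr14:54617996-54618245 on the minus strand, and the Psmb6 window chr11:70525107-70525356 on the plus strand.
Psmb5: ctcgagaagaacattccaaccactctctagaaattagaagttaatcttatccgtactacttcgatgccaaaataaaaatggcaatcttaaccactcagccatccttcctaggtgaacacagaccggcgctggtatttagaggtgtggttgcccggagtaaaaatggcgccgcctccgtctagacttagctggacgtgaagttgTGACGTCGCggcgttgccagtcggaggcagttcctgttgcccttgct
Psmb6: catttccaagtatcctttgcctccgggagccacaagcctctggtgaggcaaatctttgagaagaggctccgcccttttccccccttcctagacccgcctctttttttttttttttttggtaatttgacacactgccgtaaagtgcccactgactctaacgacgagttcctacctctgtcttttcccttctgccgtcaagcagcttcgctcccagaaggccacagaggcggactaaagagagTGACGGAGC
These letters were in the windows of 5 of the 36 proteasome genes that have a promoter entry (Psmb5, Psmb6, Psmc6, Psmd12 and Psmd9), or 13.9%, against 11.5% of 27025 genes. The share is near that of all genes. Of the 5, Psmc6 was not measured, and Psmd12 (0.15, with −0.14 on its second probe) and Psmd9 (0.16) lay near the median of the family.

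None of the 5 immunoproteasome genes was called, and their median difference of 0.19 stood beside 0.15 for the other 31 measured genes. The difference between these medians, 0.04, is small against its spread over animals. In animal 1293 the immunoproteasome median was 0.40 against 0.09 for the others, in animal 1309 it was −0.06 against 0.06, and in animal 1316 it was 0.19 against 0.28. So the immunoproteasome genes lay above the rest in 1 of 3 animals.

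Psmb8, which replaces Psmb5, read 10.75, 11.34 and 11.03 in adjacent liver and 11.15, 11.26 and 11.65 in tumours, a difference of 0.31 (SE 0.18, adjusted p = 0.485, limma). The groups overlapped, since the adjacent liver of animal 1309 was above 2 of the tumours. Its second probe gave 0.35. Psmb9, which replaces Psmb6, read 10.25, 10.30 and 10.26 beside the tumours and 10.70, 10.22 and 10.45 in them. This is a difference of 0.19 (SE 0.14, adjusted p = 0.645, limma), with the tumour of animal 1309 below every adjacent liver. For Psmb10, which replaces Psmb7, the values were 11.07, 11.34 and 11.58 in adjacent liver and 11.29, 11.44 and 11.74 in tumours. Each tumour was above its own adjacent liver by 0.11 to 0.22, but animals differed by more than that, and the difference of 0.16 (SE 0.16) did not pass (adjusted p = 0.768, limma).

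**Figure D3:**
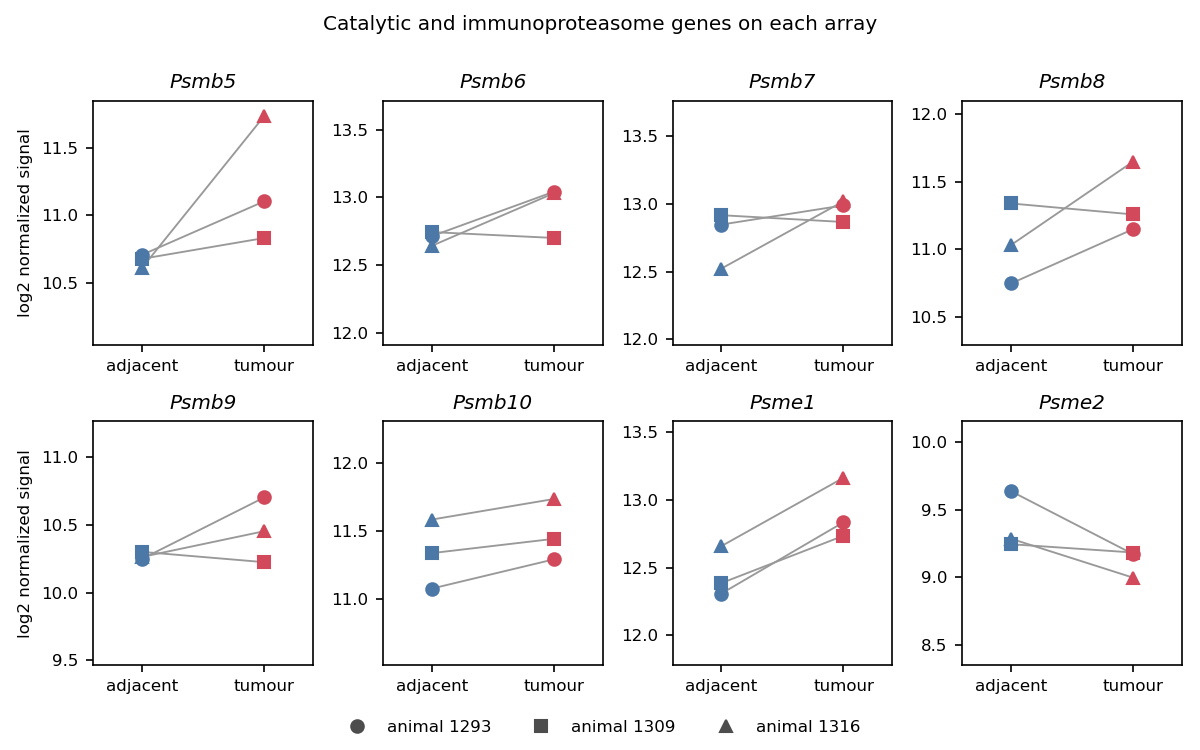
Log2 normalized signal of the 3 constitutive catalytic genes and the 5 immunoproteasome genes on each of the 6 arrays; lines join a tumour to its own adjacent liver, and each panel spans 1.8 log2 units. Psmb5 reaches 11.73 in the tumour of animal 1316, Psme1 is above and Psme2 below its adjacent liver in each animal, and Psmb6, Psmb7, Psmb8 and Psmb9 are lower in the tumour of animal 1309 than in its adjacent liver.

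The partners of the PA28 activator pointed in opposite directions. Psme1 (PA28 alpha) read 12.31, 12.39 and 12.66 in adjacent liver and 12.84, 12.74 and 13.16 in tumours, with every tumour above every adjacent liver. Its difference of 0.46 (SE 0.15) did not pass (adjusted p = 0.146, limma), and a second probe gave 0.52. Psme2 (PA28 beta) read 9.64, 9.24 and 9.29 beside the tumours and 9.17, 9.18 and 8.998 in them, with every tumour below every adjacent liver. Its difference of −0.27 (SE 0.14) did not pass either (adjusted p = 0.434, limma). The change of Psme1 relative to Psme2 was 0.73, and 0.99, 0.41 and 0.79 within animals 1293, 1309 and 1316. These values are a description of a pair singled out for its opposite signs. Psme2 was read by 1 probe and has a close relative in the mouse genome, Psme2b, so the probe may not be specific to it.

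Psme1 and Psme2 are near neighbours on chromosome 14, with Emc9 between them, and Psmb9, Tap1 and Psmb8 follow each other on chromosome 17 in the RefSeq table of assembly GRCm38.p6. Promoters of Psmb8, Psme1 and Psme2 are shown because these genes are known to answer to interferon. A pair of motifs was searched on both strands of the same 250-base windows: the core of the interferon-stimulated response element, which is GAAA, any 2 bases and GAAA again, and TTCNNNGAA, that of the interferon gamma activated site. Capitals mark the latter in Psmb8, and the printed windows of Psme1 and Psme2 hold neither. Neither motif was in the window of Psmb9 or in the other window of Psme2, which are not printed.
Psmb8, chr17:34197945-34198194, plus strand: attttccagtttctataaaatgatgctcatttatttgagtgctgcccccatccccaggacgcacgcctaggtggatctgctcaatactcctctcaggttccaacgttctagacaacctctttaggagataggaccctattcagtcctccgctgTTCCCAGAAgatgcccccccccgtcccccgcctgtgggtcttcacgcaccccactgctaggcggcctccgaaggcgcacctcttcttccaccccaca
Psme1, chr14:55578244-55578493, plus strand: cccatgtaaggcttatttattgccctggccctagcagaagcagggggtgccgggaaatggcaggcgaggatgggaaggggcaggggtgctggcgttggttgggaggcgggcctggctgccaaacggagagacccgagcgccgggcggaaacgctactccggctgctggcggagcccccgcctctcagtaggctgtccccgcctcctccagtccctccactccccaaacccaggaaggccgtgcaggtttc
Psme2, chr14:55591102-55591351, minus strand: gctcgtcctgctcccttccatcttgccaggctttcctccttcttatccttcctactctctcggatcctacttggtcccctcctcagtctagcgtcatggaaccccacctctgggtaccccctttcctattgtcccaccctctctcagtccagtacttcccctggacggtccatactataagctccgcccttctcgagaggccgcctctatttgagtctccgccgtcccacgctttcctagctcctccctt
TTCNNNGAA was in the windows of 1 of 36 proteasome genes and of 8.13% of all genes. The response element core was in those of 3 of 36 (Psmb3, Psmd4 and Psmd9) and of 3.46% of all genes. A motif that is missing from these windows may lie outside them.

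Interferon and antigen presentation genes give the setting of the immunoproteasome values. Of 20 interferon signalling genes read by the array, 4 were called higher and 0 lower, where 3.64% of all genes were called higher and 1.56% lower. They were Cxcl10, a chemokine, by 3.05 (SE 0.43, adjusted p = 0.0021, limma), Isg15, a ubiquitin-like protein, by 2.62 (SE 0.26), the antiviral gene Ifit3 by 2.47 (SE 0.26) and the GTPase gene Gbp3 by 1.09 (SE 0.18). With the animal as a replicate block 7 were called higher and 1 lower. Irf1, a transcription factor known to drive Psmb8 and Psmb9, read 11.13, 11.12 and 11.54 in adjacent liver and 11.22, 11.02 and 11.22 in tumours, a difference of −0.11 (SE 0.14, adjusted p = 0.835, limma).

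Of 10 MHC class I pathway genes 0 were called in either direction with limma, 2 had an unadjusted p under 0.05, 1 in each direction, and their median was −0.05. The lowest adjusted p was that of H2-K1, an MHC class I heavy chain, at −0.63 (SE 0.16, adjusted p = 0.0569, limma). Every tumour was below every adjacent liver for 2 of the 10, H2-K1 and Nlrc5, and above for 0. Among all measured genes the shares were 17.4% below and 18.6% above. Tap1, the peptide transporter gene between Psmb9 and Psmb8, read 7.42, 7.74 and 7.71 beside the tumours and 8.11, 7.74 and 8.27 in them. The difference of 0.41 (SE 0.16) did not pass (adjusted p = 0.23, limma), and the tumour of animal 1309 again lay within the range of adjacent liver. B2m, the MHC class I light chain, was at 0.08 (SE 0.12) and Tapbp, which loads peptides, at −0.06 (SE 0.16).

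Leukocytes carry immunoproteasomes constitutively, so their markers are given beside these values. Of 22 leukocyte markers 0 were called with limma, and the lowest adjusted p was 0.0553. At an unadjusted p under 0.05 (limma) there were 4, 3 higher and 1 lower in tumours, against 19.1% of all genes in either direction. Of the 22, 9 were below background on 6 of 6 arrays, among them Ptprc, Cd4 and Cd8a. The sum of the linear signals of the 22 was 6241 to 8363 in adjacent liver and 7027 to 8608 in tumours. The brightest were Laptm5 (0.30, SE 0.15) and Cd8b1 (0.12, SE 0.25). Coro1a, chosen after its values were seen, had a difference of 0.69 (adjusted p = 0.126, and 0.00993 with the animal block, limma).

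Of 15 macrophage markers 1 was called, Gpnmb, which was at least 6.78-fold higher in tumours, and the sums were 10972 to 19796 beside the tumours and 10391 to 14754 in them. The difference was below 0 for 13 of the 15, with a median of −0.37. The lowest was Clec4f, a Kupffer cell marker, at −1.46 (SE 0.56, adjusted p = 0.231, limma). On the lower side 5 had an unadjusted p under 0.05 (limma) and on the higher 2, against 19.1% of all genes in either direction. Within animals 15 of 15 were higher in the tumour of animal 1309, and 2 of 15 in those of animals 1293 and 1316. Lyz1 (−0.10, SE 0.22) and C1qb (−0.15, SE 0.19) were the brightest. Endothelial markers had 0 of 10 calls (1 with the animal block, higher in tumours), with Clec4g at −0.47 (SE 0.18) and Stab2 at −0.34 (SE 0.15). Their difference was below 0 for 7 of 10, and the highest was Lyve1 at 0.59. An unadjusted p under 0.05 (limma) was found for 1 on the higher side and 3 on the lower. In animal 1309 the tumour was higher for 10 of 10, in animal 1293 for 3 and in animal 1316 for 2. Biliary markers had 0 of 5 calls, but 4 of the 5 (Krt7, Krt19, Epcam and Cldn7) were below background on every array. Differences of these 4, such as −0.06 (SE 0.12) for Cldn7, carry no fold. Sox9, the 1 measured biliary marker, was at 0.17 (SE 0.24). Of 10 stellate cell and fibroblast markers 3 were called lower, against 1.56% of all genes. Among them were the brightest, Dcn at −0.93 (SE 0.21) and Reln at −1.25 (SE 0.25). Others in this list lay above 0: 3 had an unadjusted p under 0.05 on the higher side, and Acta2, at 1.17 (SE 0.38, adjusted p = 0.146, limma), was called higher with the animal block. The part of these cells in the proteasome values was not tested.

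**Figure D4:**
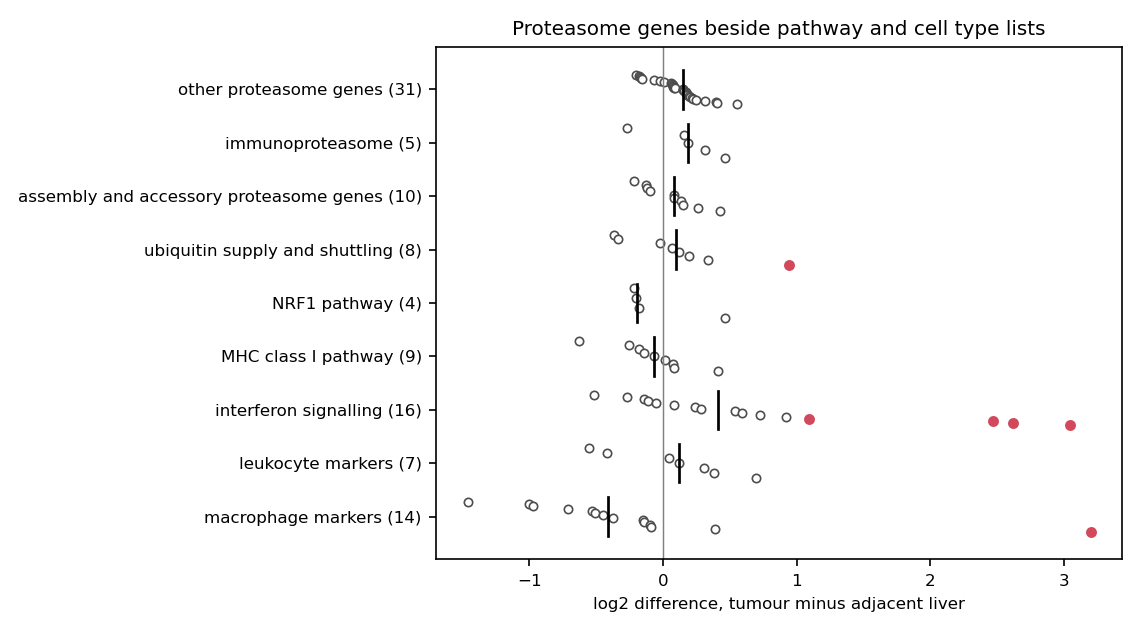
Difference in log2 signal (tumour minus adjacent liver) of measured genes in the proteasome groups, pathway lists and cell type lists; the number of genes is in brackets, filled points are calls at an adjusted p of 0.05 (limma) and bars are medians. Interferon signalling reaches 3.05 with 4 filled points, while the proteasome groups stay between −0.27 and 0.56 with none.

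The base of the cap is a ring of ATPases. Psmc2 had the highest difference of its 5 measured genes and Psmc1 the lowest. Psmc2 read 13.17, 13.00 and 13.12 in adjacent liver and 13.48, 13.31 and 13.72 in tumours, without overlap, a difference of 0.41 (SE 0.14, adjusted p = 0.161, limma). Its second probe, at a lower signal, gave 0.06. Psmc1 read 10.98, 11.04 and 11.13 beside the tumours and 10.90, 11.01 and 11.04 in them, a difference of −0.07 (SE 0.12, adjusted p = 0.888, limma), which turned to 0.05 when arrays were scaled to their medians. Psmc3 (0.09), Psmc4 (0.08) and Psmc5 (0.07) were close together.

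Among the non-ATPase subunits 10 of 11 genes were measured, with a median difference of 0.16. Psmd4, a receptor for ubiquitin chains, had the highest difference and the tightest adjacent values, at 12.89, 12.88 and 12.86, and read 13.19, 13.03 and 13.36 in tumours. Every tumour lay above the adjacent livers, but the difference of 0.32 (SE 0.13) did not pass (adjusted p = 0.261, limma). Psmd6 had the lowest, at −0.18 (SE 0.13, adjusted p = 0.64, limma), from 7.40, 7.66 and 7.36 to 7.38, 7.34 and 7.15. Psmd1, a scaffold of the base, was at 0.24 on its brightest probe, 0.16 on another and −0.17 on the dimmest. Psmd14, the deubiquitinase gene, was at 0.22 and its partner Psmd7 at 0.20, the highest of 3 probes that started at 0.05. Lid subunit genes Psmd8 (0.17), Psmd12 (0.15), Psmd13 (0.08) and Psmd11 (0.07) followed. The second probes of Psmd12 (−0.14) and Psmd11 (−0.08) had the opposite sign. Psmd2, a large scaffold gene, read near background on its brighter probe, above it on 5 of 6 arrays (−0.15).

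Psmd5, Psmd9 and Psmd10 encode chaperones that assemble the base and leave the finished particle. Psmd5 read 8.09, 8.53 and 8.15 in adjacent liver and 8.44, 8.58 and 8.92 in tumours, with overlap, a difference of 0.39 (SE 0.16, adjusted p = 0.276, limma). Psmd10, or gankyrin, which is known as an oncoprotein of human liver cancer, read 9.85, 9.93 and 9.86 beside the tumours and 9.96, 10.07 and 10.15 in them. Its difference of 0.18 (SE 0.12) did not pass (adjusted p = 0.594, limma), and the 95% interval reached from −0.08 to 0.44. All 3 of its probes were measured and lay between 0.09 and 0.18. Psmd9, the lowest of the chaperones, read 7.86, 7.86 and 7.80 and then 7.88, 7.92 and 8.19, a difference of 0.16 (SE 0.13, adjusted p = 0.691, limma).

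Neither of the other activators was called. Psme3 (PA28 gamma), a nuclear activator, read 10.02, 10.19 and 9.95 in adjacent liver and 10.11, 10.16 and 9.91 in tumours, a difference of 0.00 (SE 0.13, adjusted p = 0.995, limma). Psme4 (PA200) read 11.87, 11.85 and 12.05 beside the tumours and 11.77, 11.89 and 11.57 in them, a difference of −0.18 (SE 0.13, adjusted p = 0.653, limma), with the tumour of animal 1316 the lowest array.

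Genes that build, regulate or feed the proteasome were read from lists chosen for their function. Of 12 assembly and accessory genes 0 were called with limma and 1 had an unadjusted p under 0.05, Uchl5, a deubiquitinase of the cap (0.43, SE 0.13, adjusted p = 0.11). Pomp, the maturation factor of the core, was at 0.14 (SE 0.12). Of 9 ubiquitin supply and shuttling genes 1 was called higher and 0 lower, where 3.64% of all genes were called higher and 1.56% lower. An unadjusted p under 0.05 (limma) was found for 2 in each direction, and the lowest difference was −0.37 (Uba6). The call was Zfand2a, an arsenite-inducible partner of the proteasome. It read 9.40, 9.72 and 9.31 in adjacent liver and 10.30, 10.26 and 10.71 in tumours, a rise of 0.94 (SE 0.16, adjusted p = 0.00608, limma). Of 7 genes of the NRF1 list 4 were measured and 0 were called. Ngly1, Maff and Mafk were below background on 6 of 6 arrays. Nfe2l1 itself was at −0.18 (SE 0.15, adjusted p = 0.705, limma) and Nfe2l2 at 0.47 (SE 0.15, adjusted p = 0.152, limma). Every tumour array was above every adjacent array for Nfe2l2 (18.6% of all measured genes), at 8.83, 8.82 and 9.36 against 8.52, 8.56 and 8.54.

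Outside the rule, the 5 genes whose profile over the 6 arrays was most like the mean of the 5 immunoproteasome genes were Afg3l2, Trex1, Nsa2, Rfc1 and Cep19. Their Pearson correlations with it were between 0.992 and 0.998, as a description over 6 arrays after a search of 19012 genes.

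Psmc3ip, the 1 call under the symbol rule, encodes a cofactor of strand exchange in homologous recombination. It was below background in adjacent liver, at 6.70, 6.77 and 6.58, and above it in tumours, at 7.96, 7.16 and 7.87. It was at least 1.65-fold higher in tumours, with a fitted difference of 0.98 (SE 0.19, adjusted p = 0.0137, limma), where 3.64% of all genes were called higher. It did not pass without background correction (adjusted p = 0.0576, limma), without the tumour of animal 1293 (0.0848) or without the adjacent liver of animal 1316 (0.0692). Psme3ip1 was at 0.12 (SE 0.14, adjusted p = 0.8, limma).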

How the data were processed

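Total RNA of 3 tumours and 3 adjacent livers was read on Illumina bead arrays, with GenomeStudio per the submitters' processing notes. The authors deposited linear probe intensities, with no detection values in the files used here, and a table of log2 values, which the values show to be the same intensities quantile-normalized between arrays. Here the deposited intensities were corrected with normexp (offset 50), quantile-normalized, and tested with limma 3.58.1 in R 4.3.3 over all 45281 probes, two-sided, with Benjamini-Hochberg adjustment at 0.05. The test was checked on simulated arrays with independent noise and no animal effect. The pass mark of that check was set only for planted differences larger than any of the proteasome genes. A gene was read from its brightest probe. Background was the mode of an array's log2 signals plus 3 SDs of the values below it. A fold of at least a stated size sets the tumour mean against that background.

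Members and lists were chosen with earlier results of these data known. Full values are given for called members, immunoproteasome and catalytic genes, Psme3, Psme4, Psmd10 and the extremes of each role, for the called or preset genes of the pathway lists, and for the 2 brightest markers of each cell type. Other genes named were chosen after their values were seen. The sample titles pair tumour and adjacent liver by animal. Deviations from the group means correlated at 0.41, 0.25 and 0.09 within animals 1293, 1309 and 1316 over 14026 probes. Between animals the correlations were from −0.27 to 0.03. The lowest value within an animal was that of 1316, whose tumour has a different animal number in another label. Alternatives were another background correction, scaling, filter, variance model, probe rule, the animal block, the authors' log2 table, and each array left out. Promoter sequences and gene order are from RefSeq.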

Additional observations from a re-analysis of the deposited data

How the results depend on the processing

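Across 15 alternatives, 0 immunoproteasome genes were called on their brightest probe. The 1 call by symbol, Psmc3ip, became 0 with the authors' table and without background correction, for genes, for probes and for the genes outside the immunoproteasome, and it was 0 without Psmc3ip and Psme3ip1. Leaving out 1 array gave 0 to 2 called genes and 0 to 4 called probes. The higher counts came without the tumour of animal 1309, where Psmb5 was called (0.76), and the counts of 0 came without the tumour of animal 1293 or the adjacent liver of animal 1316. The cause was not tested. For Psmc3ip the difference was 0.69 with the authors' table and 0.69 without background correction.

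Intervals lay inside 1.5-fold for 15 of 36 genes with a normexp offset of 16, an alternative added after seeing the data, and for 20 to 31 when 1 array was left out. Inside 2-fold the count was 35 or 36 in each of 15 alternatives. Psmc1 reversed to 0.046 under median scaling, and Psme3, at 0.00, ranged from −0.048 to 0.078 when 1 array was left out, below 0 in 4 cases. With the animal as a replicate block 1 symbol, Psmc3ip, was called (adjusted p = 0.00812, limma), and no other member's call changed, while calls over all genes went from 992 to 1461. Over all genes, calls higher in tumours were 70.0% of calls, and 85.3% under median scaling. No depth is defined for arrays, and the 7 genes below background are not measured.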
